A study of Mus musculus and Rattus norvegicus with 30 samples.

Results

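The 40 genes described here encode the machinery of the cell division cycle, and their transcripts were read in rat heart cell cultures and in mouse left ventricle. They were chosen by name as known cell cycle genes and set in 3 groups by role: 11 genes of G1 control, 10 genes of DNA replication and 19 genes of G2 and mitosis. In the rat table, which lists 32545 genes, 39 of the 40 matched by gene symbol and no row was named Ccnb2, the gene of cyclin B2. All 40 matched in the mouse tables, which list 54307 genes. After a filter on low counts 39 members were tested in rat and 39 in mouse, where Aurkb, the gene of a mitotic kinase, was too low to be tested.

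Cells enter the cycle when D-type cyclins with Cdk4, and then cyclin E with Cdk2, release the E2F transcription factors, which switch on the genes that copy DNA. A later wave of genes, driven by FOXM1 and the MuvB complex, builds the spindle, the kinetochores and the contractile ring, and inhibitors such as the products of Cdkn1a, Cdkn1b and Cdkn1c hold the cycle back. Heart muscle cells leave the cycle soon after birth, whereas fibroblasts, endothelial cells and immune cells of the heart can go on dividing.

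The series tested agonists of ERRs, the estrogen-related nuclear receptors, which are known for their control of energy metabolism, in a culture and in a mouse model. Neonatal rat ventricular myocytes were isolated from pups at postnatal day 3, plated after a step on plastic that lets fibroblasts attach, and kept for 2 days in seeding medium with 100 µM bromodeoxyuridine, a thymidine analogue that all 4 rat groups received. The cells carried 25 nM siRNA against ERR alpha and ERR gamma (the double knockdown) or a scramble siRNA, and were given the agonist 915 at 10 µM or an equal volume of DMSO vehicle for 24 h, with 3 libraries per group. The protocol also names siRNAs against Esrrb and against E2f1, a member gene, but the label of no library carries either. Wild-type mice had transverse aortic constriction (TAC), which narrows the aorta and overloads the left ventricle with pressure, or a sham operation, followed by the agonist 332 by intraperitoneal injection or vehicle for 6 weeks. Left ventricle was sequenced from 3 sham vehicle, 5 sham 332, 5 TAC vehicle and 5 TAC 332 mice.

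Total counts ran from 12013379 to 18315341 per library in rat and from 11375894 to 16599899 in mouse. Across the scramble libraries Esrra stood at 169 CPM (counts scaled to library size) or more and Esrrg at 130.3 CPM or more. In the double knockdown Esrra stood at 21.9 CPM or less and Esrrg at 25.1 CPM or less, so both targeted genes matched the labels. Esrrb, the gene of ERR beta, was also lower there, at 3.01 CPM or more in scramble and 1.78 CPM or less in knockdown libraries. The labels do not say whether rat libraries of a group came from separate isolations, so p-values may measure a technical spread. Cardiomyocyte markers were high in mouse and uneven in rat. There Tnnt2 stood at 2707 CPM or more and Myl2 at 112 CPM or less in every library. The rat cultures also held fibroblast markers (Col1a1, a collagen gene, at 4243 CPM or more in every library) and smooth muscle markers. On average the 10 fibroblast markers summed to 14330 CPM and the 8 cardiomyocyte markers to 15434 CPM in scramble vehicle libraries. In knockdown vehicle libraries these sums were 13772 and 9849 CPM, not scaled for gene length. The T cell marker Cd3e had no count in rat. In bulk RNA, fewer cells of a type and less RNA per cell cannot be told apart.

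Promoters of 6 members are shown because the members of G2 and mitosis share an element that the choice of members did not use. RefSeq promoters (build GRCm38.p6, 250 bases before to 50 after the start) were found for 31 of the 40 members, and no entry was matched for Ccnd1, Ccnd2, Ccne2, Cdkn1c, Mcm4, Ccna2, Aurkb, Foxm1 and Kif20a. Each stretch below holds the 200 bases before the start, read 5′ to 3′ on the strand of the gene. Capitals mark matches on either strand to the cell cycle homology region (CHR; TTTGAA or TTCGAA), which recruits MuvB, to CCAAT, which binds NF-Y, or to an E2F core. The cores searched were TTCCCGC or TTGGCGC or TTGCCGC or TTCGCGC.
Cdk1: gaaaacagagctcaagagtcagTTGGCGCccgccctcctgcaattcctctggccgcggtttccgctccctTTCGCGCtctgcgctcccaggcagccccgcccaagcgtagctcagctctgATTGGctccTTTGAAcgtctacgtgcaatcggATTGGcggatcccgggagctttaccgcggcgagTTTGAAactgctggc
Top2a: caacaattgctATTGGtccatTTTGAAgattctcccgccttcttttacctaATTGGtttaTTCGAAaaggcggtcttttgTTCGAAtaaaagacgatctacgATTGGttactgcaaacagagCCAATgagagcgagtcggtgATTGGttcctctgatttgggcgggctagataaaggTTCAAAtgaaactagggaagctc
Mki67: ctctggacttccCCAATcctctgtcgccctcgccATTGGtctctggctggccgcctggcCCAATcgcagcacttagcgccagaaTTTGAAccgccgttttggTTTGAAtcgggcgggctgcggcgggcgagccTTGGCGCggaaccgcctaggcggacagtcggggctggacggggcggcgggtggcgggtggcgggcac
Kif11: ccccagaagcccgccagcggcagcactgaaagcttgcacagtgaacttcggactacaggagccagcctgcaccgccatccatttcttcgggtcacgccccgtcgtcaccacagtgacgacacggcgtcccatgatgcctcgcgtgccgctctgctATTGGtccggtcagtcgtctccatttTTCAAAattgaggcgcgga
Cenpf: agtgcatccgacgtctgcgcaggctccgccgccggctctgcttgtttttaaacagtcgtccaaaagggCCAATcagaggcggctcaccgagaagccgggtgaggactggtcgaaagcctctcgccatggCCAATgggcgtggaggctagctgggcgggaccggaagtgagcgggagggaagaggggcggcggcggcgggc
Rrm1: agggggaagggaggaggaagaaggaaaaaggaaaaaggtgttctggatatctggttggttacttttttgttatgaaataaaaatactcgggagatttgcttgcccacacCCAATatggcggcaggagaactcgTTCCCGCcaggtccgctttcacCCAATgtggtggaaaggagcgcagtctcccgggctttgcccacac
The stretches lie at chr10:69352913-69353112 on the minus strand (Cdk1), chr11:99024190-99024389 on the minus strand (Top2a) and chr7:135716380-135716579 on the minus strand (Mki67). The others lie at chr19:37376182-37376381 on the plus strand (Kif11), chr1:189688087-189688286 on the minus strand (Cenpf) and chr7:102441495-102441694 on the plus strand (Rrm1).

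Of the 15 G2 and mitosis genes with a promoter, 12 held a CHR in the 300 bases, against 2 of 9 replication genes, 0 of 7 G1 genes and 21.7% of the 27025 genes in the table. CCAAT stood in 14 of the 15 G2 and mitosis genes, 8 of the 9 replication genes, 3 of the 7 G1 genes and 41.1% of all genes. The E2F cores showed another split, with 3 of 15, 6 of 9 and 1 of 7 genes against 10.9% of all genes. Cdk1 carried a CHR 71 and 15 bases before its start and Kif11 one 19 bases before, whereas the CHR of Cenpf lay 3 bases after the start and is not in the stretch shown. AAGGTCA, the core that ERRs bind, was found for Ccnd3 alone among the 31 members, 97 bases before 1 of its starts, against 5.38% of all genes. E2F cores can overlap one another, and ATTGG, the reverse of CCAAT, can overlap TTGGCGC, so a base can belong to several matches, but each gene was counted once. These matches describe the letters only.

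Levels per length covered a wide range and did not follow the roles throughout. In scramble vehicle cells the deposited FPKM was highest for Cdkn1a, the gene of the inhibitor p21, at 482 ± 17.4 (SD, n = 3). Ccnd2 followed at 129 ± 3.06 FPKM and Cdk4 at 105 ± 0.809 FPKM, while Mki67, which marks cycling cells, stood at 2.35 ± 0.287 FPKM and Cenpf at 0.683 ± 0.00978 FPKM. In sham vehicle hearts the deposited TPM was 21.9 ± 1.49 for Cdk4 and 15.7 ± 2.58 for Pcna, but 0.152 ± 0.0147 for Mki67 and 0.162 ± 0.0657 for Top2a. The mitosis genes Cenpa, at 12.4 ± 2.09 TPM, and Cenpf, at 3.96 ± 0.768 TPM, stood among the higher members, and the G1 genes Ccne1, at 0.248 ± 0.184 TPM, and E2f1, at 0.0281 ± 0.000284 TPM, among the lower ones. Coding transcripts held 22.1% of the mouse counts of Cdk4, 44.1% of those of Tyms and 30.7% of those of Cenpa, so the levels of these 3 genes are largely those of other transcripts. The levels that follow are CPM, which compare a gene across libraries and not genes with each other.

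The agonist 915 in scramble cells was followed by lower transcripts of the D-type cyclins, of p21 and of many mitosis genes. Of 39 members tested, 19 fell and 2 rose at an adjusted p below 0.05 in edgeR's quasi-likelihood test (Benjamini-Hochberg over all genes). Over all 15181 genes tested, 42.2% were called, 20.6% lower and 21.5% higher, so the share of members that fell stood above the background and the share that rose below it. The median log2 change of the members was −0.29, against 0.01 for all genes. Without scramble 915 replicate 3 the count of called members was 11 of 39 in place of 21, against 5553 of 15468 genes. A total of 8 members kept their call under every alternative tried: Ccnd1, Cdkn1a, Ccna2, Cdk1, Mcm3, Mcm6, Pcna and Ccnd2.

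Among the 11 G1 genes 6 fell and 1 rose, against 20.6% lower and 21.5% higher over all genes. Ccnd1 (ENSRNOG00000020918, chromosome 1, 218090750 to 218100325 in rn6), a D-type cyclin that activates Cdk4, stood at 141, 138 and 144 CPM with vehicle and at 69.7, 68.6 and 75.2 CPM with 915, a log2 change of −0.98 (SE 0.06, adjusted p = 1.49e-12). The groups did not overlap, and the highest 915 library was far under the lowest vehicle library. Overlap was not counted over all genes, so here and below it describes single genes and is no trait of the members. Cdkn1a (ENSRNOG00000000521, chromosome 20, 6351458 to 6358864 in rn6) stood at 979.9, 961 and 910.0 CPM with vehicle and at 686, 663 and 653 CPM with 915, a change of −0.51 (SE 0.05, adjusted p = 1.63e-08). Both the cyclin and the inhibitor were thus lower in each of the 3 treated libraries. Ccnd2 was at 182, 188 and 184 CPM with vehicle and at 156, 168 and 156 CPM with 915 (log2 change −0.20, SE 0.06), and Ccnd3 at 180.1, 181 and 166 CPM with vehicle and at 164, 156 and 149 CPM with 915 (log2 change −0.17, SE 0.05). Ccnd3 missed the threshold without scramble 915 replicate 3 (adjusted p = 0.0907) or without either of scramble vehicle replicates 1 and 2 (adjusted p = 0.0608 and 0.0697).

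Cdkn1c, the gene of the inhibitor p57, stood at 85.7, 78.0 and 80.1 CPM with vehicle and at 72.4, 66.1 and 68.5 CPM with 915 (log2 change −0.24, SE 0.07). Its groups did not overlap, but the call was lost without scramble 915 replicate 2 (adjusted p = 0.0645) or scramble vehicle replicate 1 (adjusted p = 0.0709). Cdk2, the kinase partner of cyclin E, was at 33.2, 33.1 and 37.5 CPM with vehicle and at 30.1, 29.3 and 29.7 CPM with 915 (log2 change −0.22, SE 0.09), a call lost in 7 of 11 alternatives, among them without scramble vehicle replicate 3 or scramble 915 replicate 1, 2 or 3 or with DESeq2 or with no low-count filter or with RLE size factors (adjusted p from 0.0503 to 0.204). Ccne1, which encodes a cyclin E, was the G1 gene that rose, from 7.76, 6.61 and 7.30 to 8.20, 10.9 and 10.3 CPM (log2 change 0.44, SE 0.17), and that call was lost without scramble vehicle replicate 2 or 3 or scramble 915 replicate 2 or 3 or with no low-count filter (adjusted p from 0.0577 to 0.146). E2f1, the transcription factor of the G1 to S step, was not called at 19.7, 17.2 and 15.2 CPM with vehicle and at 18.04, 13.9 and 13.3 CPM with 915 (log2 change −0.21, SE 0.13, adjusted p = 0.209). The E2f1 ranges overlapped, although it was called without scramble 915 replicate 1 (adjusted p = 0.0440).

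Of the 10 replication genes 5 fell and 1 rose, against 20.6% lower and 21.5% higher over all genes. Pcna, the clamp that holds DNA polymerase on its template, rose, from 52.4, 49.5 and 47.0 CPM with vehicle to 59.9, 62.4 and 58.5 CPM with 915 (log2 change 0.28, SE 0.07, adjusted p = 0.00141). Mcm3, a subunit of the replicative helicase, fell from 16.6, 21.9 and 17.8 to 10.97, 10.3 and 11.5 CPM (log2 change −0.78, SE 0.12, adjusted p = 1.32e-05). Each 915 library was under every vehicle library for Mcm3, and above every vehicle library for Pcna. Mcm6 of the same helicase was at 22.5, 24.1 and 22.8 CPM with vehicle and at 16.9, 18.6 and 17.2 CPM with 915 (log2 change −0.40, SE 0.10). Mcm4 stood at 26.3, 29.0 and 28.5 and 21.6, 22.2 and 24.6 CPM (log2 change −0.29, SE 0.10) and Mcm5 at 12.2, 12.4 and 12.3 and 9.25, 9.94 and 8.73 CPM (log2 change −0.40, SE 0.14). Mcm4 lost its call without scramble vehicle replicate 2 or 3 or scramble 915 replicate 1 or 2 (adjusted p from 0.0551 to 0.0789). Mcm5 lost it without scramble vehicle replicate 2 or 3 or scramble 915 replicate 1 or 3 (adjusted p from 0.0507 to 0.0830). Rrm2, the small subunit of ribonucleotide reductase, was low, at 4.47, 5.69 and 6.71 CPM and 3.37, 2.88 and 2.83 CPM (log2 change −0.89, SE 0.32), and its call was lost without scramble vehicle replicate 2 or 3 or scramble 915 replicate 1, 2 or 3 (adjusted p from 0.0544 to 0.118). Mcm2, Mcm7, Rrm1 and Tyms were not called, with log2 changes between −0.16 (Tyms) and 0.00 (Mcm2).

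**Figure D1:**
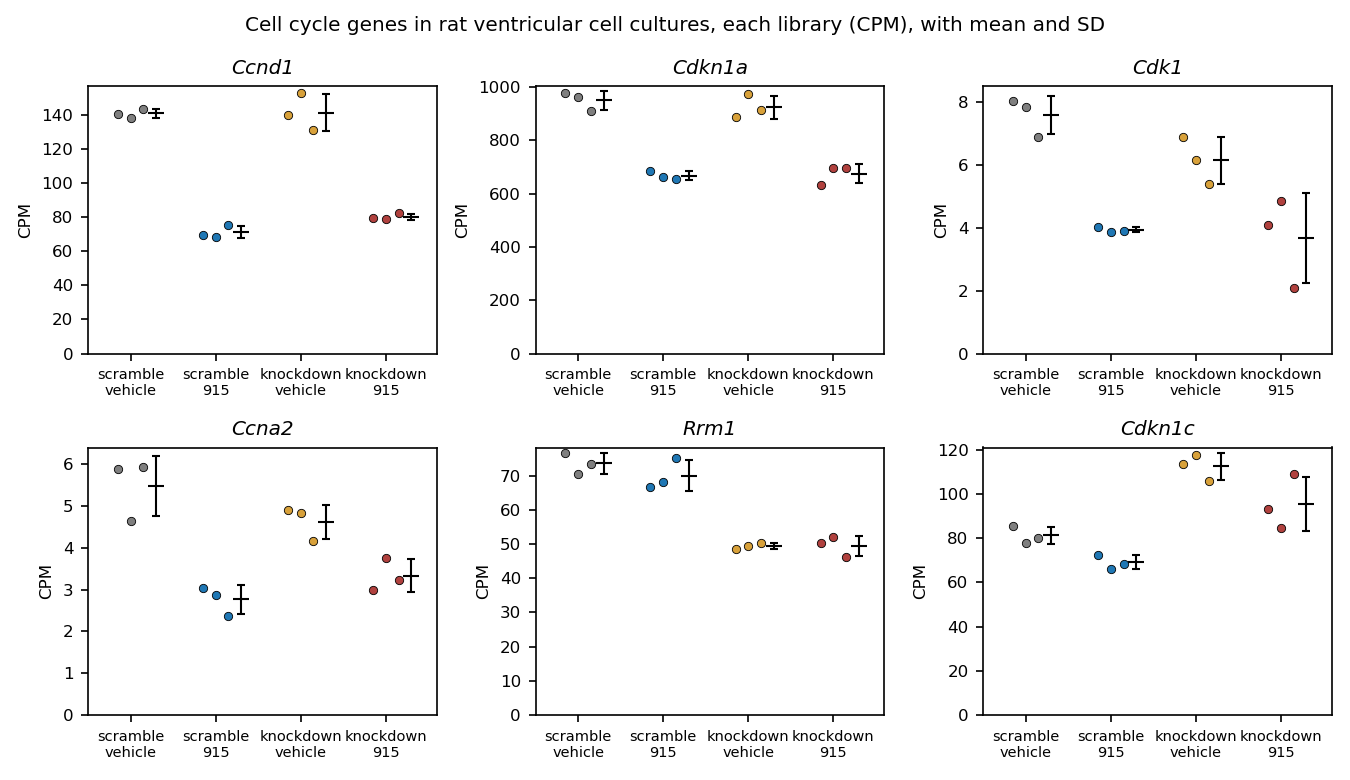
CPM of Ccnd1, Cdkn1a, Cdk1, Ccna2, Rrm1 and Cdkn1c in each rat library; points are the 3 libraries of each group and the bar beside them is the mean with the SD. The 915 libraries sit under the vehicle libraries of the same siRNA for Ccnd1, Cdkn1a, Cdk1 and Ccna2, and the knockdown libraries sit under the scramble libraries of the same treatment for Rrm1 and above them for Cdkn1c.

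The G2 and mitosis genes fell in 8 of 18 cases and rose in none, against 20.6% lower and 21.5% higher over all genes. Their median log2 change was −0.46. Fold changes were below 0 for 16 of the 18, against 49.2% of all genes tested. Ccna2, the cyclin of S phase and G2, stood at 5.88, 4.65 and 5.93 CPM with vehicle and at 3.04, 2.88 and 2.38 CPM with 915 (log2 change −0.99, SE 0.21, adjusted p = 0.000559). Cdk1, the kinase that drives entry into mitosis and whose promoter is printed above, stood at 8.05, 7.85 and 6.91 CPM with vehicle and at 4.03, 3.88 and 3.91 CPM with 915 (log2 change −0.95, SE 0.23, adjusted p = 0.00162). In both genes the groups did not overlap, and the treated libraries lay close together. Top2a, the topoisomerase that untangles chromosomes, was at 13.8, 14.3 and 12.6 CPM with vehicle and at 7.601, 8.47 and 5.27 CPM with 915 (log2 change −0.93, SE 0.29, adjusted p = 0.0205). The Top2a groups did not overlap either, yet its call was lost without scramble 915 replicate 1 (adjusted p = 0.0515) or 3 (adjusted p = 0.0704) and without scramble vehicle replicate 1 (adjusted p = 0.0521) or 2 (adjusted p = 0.0587).

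Aurkb, the kinase of the chromosomal passenger complex, stood at 6.46, 8.12 and 7.43 CPM with vehicle and at 4.03, 4.00 and 5.95 CPM with 915 (log2 change −0.65, SE 0.19). Kif23, a kinesin of the central spindle, was at 6.70, 8.18 and 7.23 CPM with vehicle and at 3.77, 5.82 and 2.83 CPM with 915 (log2 change −0.83, SE 0.23). Aurkb lost its call without scramble 915 replicate 2 (adjusted p = 0.0511) and Kif23 without scramble 915 replicate 3 (adjusted p = 0.0513). Bub1b, a spindle checkpoint gene, was at 4.47, 3.21 and 2.87 CPM with vehicle and at 2.31, 2.29 and 1.81 CPM with 915 (log2 change −0.72, SE 0.27). Cenpf, a kinetochore gene, was at 6.99, 6.81 and 7.04 CPM with vehicle and at 4.49, 4.88 and 4.76 CPM with 915 (log2 change −0.56, SE 0.20). Kif11, the motor that separates spindle poles, was at 7.17, 7.13 and 8.27 CPM with vehicle and at 5.22, 5.82 and 4.71 CPM with 915 (log2 change −0.52, SE 0.20). None of these 3 overlapped between the groups, which was not counted over all genes. Bub1b lost its call without scramble vehicle replicate 1 or scramble 915 replicate 1, 2 or 3 or with no low-count filter (adjusted p from 0.0548 to 0.198). Cenpf lost it without scramble vehicle replicate 1, 2 or 3 or scramble 915 replicate 1, 2 or 3 or with no low-count filter (adjusted p from 0.0523 to 0.0772). Kif11 lost it without scramble vehicle replicate 1, 2 or 3 or scramble 915 replicate 1 or 3 or with no low-count filter (adjusted p from 0.0564 to 0.135). Mki67 was not called at 21.3, 26.5 and 22.5 CPM with vehicle and at 22.9, 18.2 and 18.6 CPM with 915 (log2 change −0.24, SE 0.12, adjusted p = 0.106), and its ranges overlapped, but it was called without scramble 915 replicate 1 (adjusted p = 0.0329).

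In knockdown cells 915 was also followed by lower Ccnd1 and Cdkn1a, and fewer members were called. Here 10 of 39 members fell and 2 rose, against 35.7% of all genes called, 17.6% lower and 18.1% higher, and the median log2 change of the members was −0.15. Ccnd1 stood at 140.2, 153 and 131 CPM with vehicle and 79.5, 79.1 and 82.2 CPM with 915 (log2 change −0.82, SE 0.06, adjusted p = 8.47e-11). Cdkn1a stood at 889, 973 and 913 CPM and 633, 697 and 695 CPM (log2 change −0.45, SE 0.05, adjusted p = 1.67e-07). Neither gene overlapped between the groups. Mcm6 fell from 24.9, 28.5 and 26.4 to 18.4, 20.2 and 16.6 CPM (log2 change −0.53, SE 0.10, adjusted p = 0.000121), and Cdk4, the G1 kinase, rose from 77.3, 81.6 and 80.002 to 90.0, 90.9 and 97.1 CPM (log2 change 0.22, SE 0.05, adjusted p = 0.00198). These 4 kept their calls under every alternative. Without knockdown vehicle replicate 2 the count of called members was 7 of 39 in place of 12, against 4708 of 15413 genes.

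Other members called in knockdown cells changed less steadily. Cdk1 stood at 6.91, 6.15 and 5.40 CPM with vehicle and 4.09, 4.87 and 2.09 CPM with 915 (log2 change −0.74, SE 0.23), and Kif23 at 7.52, 8.87 and 5.70 and 3.46, 4.74 and 4.82 CPM (log2 change −0.76, SE 0.23). Cenpf was at 6.18, 6.93 and 5.17 and 4.09, 4.81 and 2.92 CPM (log2 change −0.63, SE 0.20). In each of these mitosis genes no treated library reached the vehicle libraries. Cdk1 lost its call without knockdown vehicle replicate 1 or knockdown 915 replicate 3 (adjusted p from 0.0656 to 0.109). Kif23 lost it without knockdown vehicle replicate 2 or knockdown 915 replicate 1 (adjusted p from 0.0661 to 0.0837). Cenpf lost it without knockdown vehicle replicate 2 or knockdown 915 replicate 3 (adjusted p from 0.0829 to 0.113). Rrm2 was at 3.90, 8.31 and 3.50 and 1.18, 2.99 and 2.28 CPM (log2 change −1.27, SE 0.33) and Mcm4 at 32.6, 28.0 and 27.1 and 22.1, 25.6 and 21.3 CPM (log2 change −0.35, SE 0.10). Cdkn1b, the gene of the inhibitor p27, rose from 69.6, 62.7 and 67.5 to 81.1, 73.7 and 77.1 CPM (log2 change 0.21, SE 0.06). Rrm2 and Cdkn1b lost their calls without knockdown vehicle replicate 2 (adjusted p = 0.0585 and 0.0601). Ccnd2 (log2 change −0.20, SE 0.06) and Cdkn1c (log2 change −0.23, SE 0.07) were called lower although their ranges overlapped, with Ccnd2 at 163, 152 and 165 and 128, 137 and 152 CPM and Cdkn1c at 113, 118 and 106 and 93.2, 84.8 and 109 CPM. Mcm4 lost its call without knockdown vehicle replicate 1 (adjusted p = 0.0643). Ccnd2 lost it without knockdown 915 replicate 1 (adjusted p = 0.0623). Cdkn1c lost it without knockdown vehicle replicate 2 or knockdown 915 replicate 1 or 2 (adjusted p from 0.0595 to 0.119). Top2a was not called at 12.1, 12.2 and 9.92 and 7.55, 11.1 and 4.00 CPM (log2 change −0.60, SE 0.29, adjusted p = 0.131). It was called without knockdown 915 replicate 2 (adjusted p = 0.00198) or, with all libraries, under a replicate block (log2 change −0.66, adjusted p = 0.00849).

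**Figure D2:**
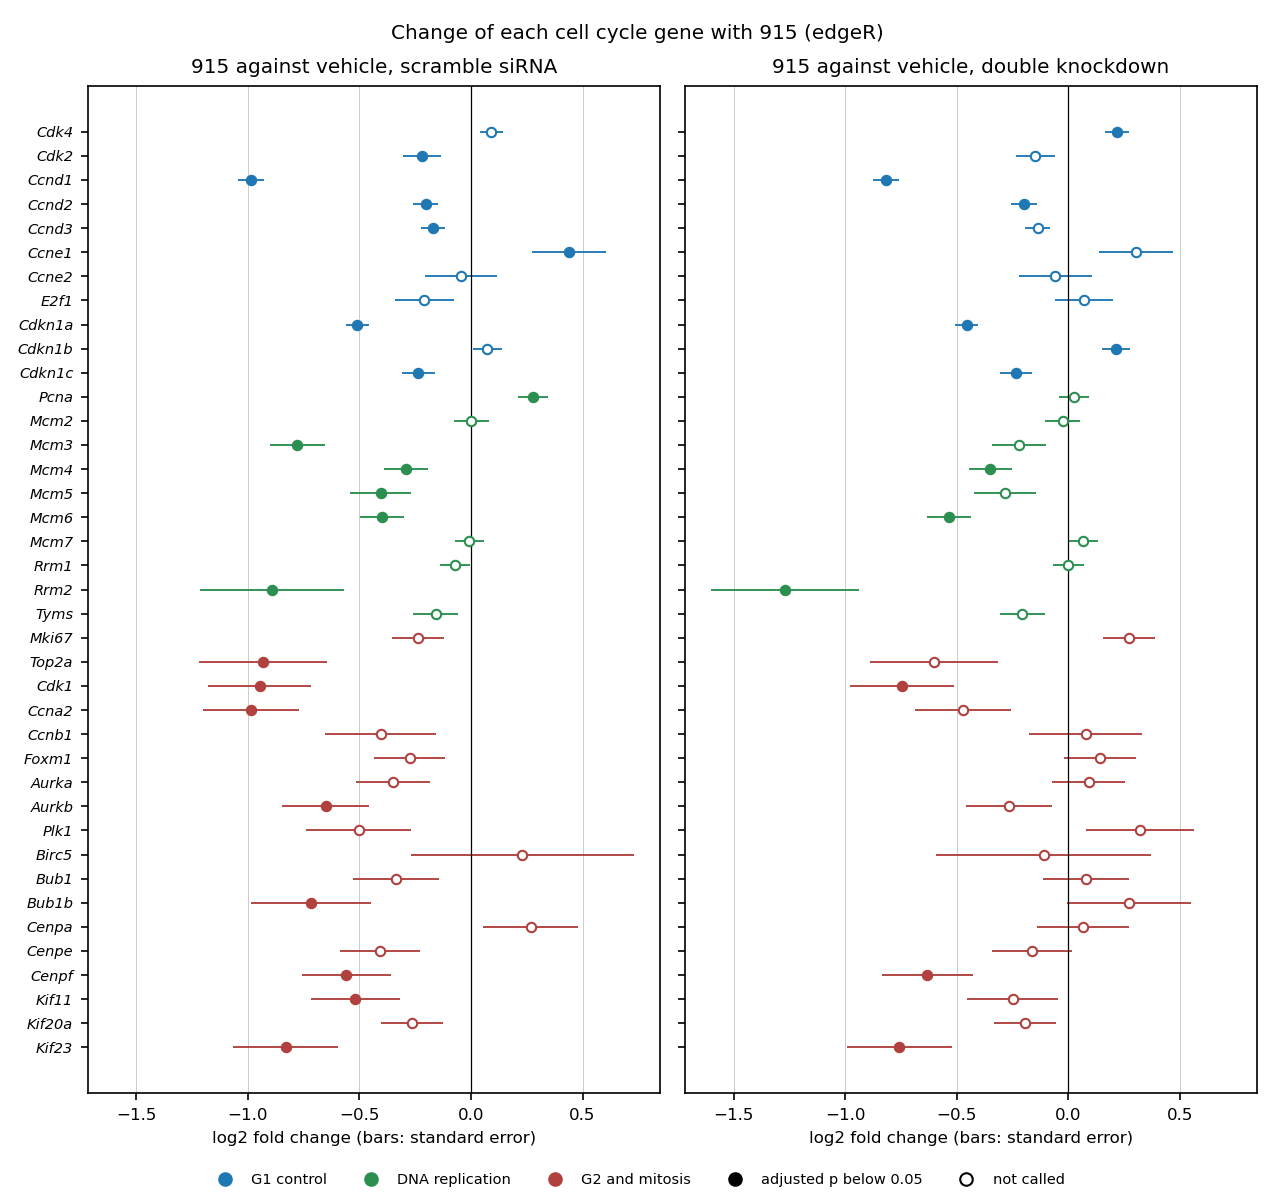
Log2 fold change of each of the 39 rat members with 915 against vehicle, in scramble cells (left) and in double knockdown cells (right); bars are standard errors, filled points passed an adjusted p of 0.05 and colours give the role. In scramble cells 16 of the 18 G2 and mitosis genes sit left of 0, and in knockdown cells 10 of 18 do.

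The difference between the 2 effects of 915, knockdown minus scramble, was tested in the same fit, and no member passed. Over all genes 3.73% were called, 1.74% higher and 1.99% lower. At an unadjusted p below 0.05 there were 5 of 39 members (Pcna, Mcm3, Mki67, Plk1 and Bub1b), against 2479 of all 15181 genes. DESeq2 called 0 of the 25 members to which its own filter left an adjusted p, and edgeR with no low-count filter called Mki67 (adjusted p = 0.0366). Mki67 stood at 23.3, 17.3 and 19.4 CPM in knockdown vehicle cells and 24.5, 25.2 and 22.8 CPM in knockdown 915 cells, and its difference of effects was 0.51 (SE 0.17, adjusted p = 0.0926). It was called without knockdown vehicle replicate 1 (adjusted p = 0.0491) or without scramble 915 replicate 1 (adjusted p = 0.0459). For Mcm3 the difference was 0.56 (SE 0.17, adjusted p = 0.0741), and for Bub1b it was 0.99 (SE 0.39, adjusted p = 0.175). These comparisons do not show that the members responded alike in scramble and in knockdown cells.

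The double knockdown itself, in vehicle cells, was followed by less Rrm1 and more Cdkn1c. It called 6 of 39 members lower and 1 higher, against 20.4% of all genes, 12.7% lower and 7.75% higher. Rrm1 (ENSRNOG00000045752, chromosome 1, 167538387 to 167562687 in rn6), the large subunit of ribonucleotide reductase, fell from 76.7, 70.6 and 73.5 CPM in scramble vehicle cells to 48.6, 49.4 and 50.4 CPM in knockdown vehicle cells (log2 change −0.57, SE 0.07, adjusted p = 2.99e-07). Cdkn1c rose from 85.7, 78.0 and 80.1 to 113, 118 and 106 CPM (log2 change 0.47, SE 0.07, adjusted p = 3.12e-05). Both genes separated the groups without overlap. Cdk4 fell from 97.1, 97.2 and 96.4 to 77.3, 81.6 and 80.002 CPM (log2 change −0.28, SE 0.05, adjusted p = 0.000245) and Ccnd2 from 182, 188 and 184 to 163, 152 and 165 CPM (log2 change −0.21, SE 0.06, adjusted p = 0.00940). These 4 kept their calls under every alternative. Plk1, the polo kinase of mitosis, stood at 6.64, 6.48 and 5.47 and 4.01, 2.99 and 4.16 CPM (log2 change −0.74, SE 0.24), Bub1b at 4.47, 3.21 and 2.87 and 2.40, 1.88 and 1.60 CPM (log2 change −0.84, SE 0.27) and Kif11 at 7.17, 7.13 and 8.27 and 5.85, 5.04 and 4.40 CPM (log2 change −0.56, SE 0.20). Plk1 lost its call without scramble vehicle replicate 1 or 2 or knockdown vehicle replicate 1 or 2 (adjusted p from 0.0550 to 0.119). Bub1b lost it without scramble vehicle replicate 1 or knockdown vehicle replicate 2 or 3 or with no low-count filter (adjusted p from 0.0528 to 0.182). Kif11 lost it without scramble vehicle replicate 1, 2 or 3 or knockdown vehicle replicate 2 or 3 or with no low-count filter (adjusted p from 0.0699 to 0.182). Without scramble vehicle replicate 1 the count of members called was 4 of 39 in place of 7, against 2338 of 15455 genes. Of 8 cardiomyocyte markers 6 were called lower (median log2 change −0.81), and 3 of 6 leukocyte, 2 of 7 endothelial and 1 of 10 fibroblast markers higher. The part of these cell types in the members' levels was not tested.

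In the presence of 915, knockdown against scramble cells gave 4 members higher and 4 lower of 39, against 33.9% of all genes, 16.2% higher and 17.7% lower. Cdkn1c was again higher, at 72.4, 66.1 and 68.5 CPM in scramble 915 and 93.2, 84.8 and 109 CPM in knockdown 915 cells (log2 change 0.47, SE 0.07, adjusted p = 2.09e-05). Rrm1 was again lower, at 66.8, 68.1 and 75.2 and 50.2, 52.1 and 46.3 CPM (log2 change −0.50, SE 0.07, adjusted p = 1.64e-06). Neither gene overlapped between the groups. Cdkn1b rose from 61.9, 62.4 and 64.4 CPM in scramble 915 cells to 81.1, 73.7 and 77.1 CPM in knockdown 915 cells (log2 change 0.30, SE 0.06, adjusted p = 0.000715), and Pcna fell from 59.9, 62.4 and 58.5 to 50.8, 51.5 and 51.6 CPM (log2 change −0.23, SE 0.07, adjusted p = 0.00873). Ccnd1 (log2 change 0.17, SE 0.06) and Mcm3 (log2 change 0.38, SE 0.12; knockdown 915 at 13.5, 15.98 and 13.2 CPM) were called higher, and Ccnd2 (log2 change −0.20, SE 0.06) and Cdk4 (log2 change −0.15, SE 0.05; scramble 915 at 103, 103 and 104 CPM) lower. Ccnd1 lost its call without scramble 915 replicate 1 or 2 or knockdown 915 replicate 1, 2 or 3 (adjusted p from 0.0549 to 0.121). Cdk4 lost it without scramble 915 replicate 1, 2 or 3 or knockdown 915 replicate 1 or 2 (adjusted p from 0.0507 to 0.0696). Mcm3 lost it without scramble 915 replicate 2 or knockdown 915 replicate 2 (adjusted p from 0.0749 to 0.130). Ccnd2 lost it without scramble 915 replicate 2 (adjusted p = 0.0519). The count of called members was 5 of 39 in place of 8 without knockdown 915 replicate 2 (4340 of 15479 genes) or without scramble 915 replicate 2 (4356 of 15470 genes). No G2 and mitosis gene was called in edgeR, where Mki67 and Aurka had an unadjusted p below 0.05, against 6431 of all 15181 genes. Mki67 was called without the low-count filter (adjusted p = 0.0492), without scramble 915 replicate 1 (adjusted p = 0.0209) or with only the groups compared. Aurka was called without scramble 915 replicate 2 (adjusted p = 0.0422). In the same comparison all 8 cardiomyocyte markers were called lower (median log2 change −1.62), and 6 of 10 fibroblast, 6 of 8 smooth muscle and pericyte, 4 of 6 leukocyte and 3 of 7 endothelial markers higher, whose part was not tested.

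The other 14 rat members were called in none of these comparisons in the main fit. They were Ccne2, E2f1, Mcm2, Mcm7, Tyms, Mki67, Ccnb1, Foxm1, Aurka, Birc5, Bub1, Cenpa, Cenpe and Kif20a. Besides the calls given above, Kif20a, Cenpe and Bub1 were called for 915 in scramble cells without scramble vehicle replicates 1, 2 and 3 in turn (adjusted p = 0.0402, 0.0272 and 0.0276). Aurka was called there without scramble 915 replicate 2 (adjusted p = 0.0387). Without scramble vehicle replicate 3, Foxm1 was called for the knockdown with vehicle (adjusted p = 0.0454). RLE size factors called Mcm7 for the knockdown with 915 (adjusted p = 0.0469), as did the fit without knockdown 915 replicate 3 (adjusted p = 0.0489). For 915 in knockdown cells Mki67 changed by 0.27 in the main fit (adjusted p = 0.0741). It was called higher there without knockdown vehicle replicate 1 (log2 change 0.40, adjusted p = 0.0190). Birc5, the survivin gene of the passenger complex, ran from 0.381 to 2.99 CPM over the 12 libraries, and Mcm7 of the helicase from 49.9 to 62.4 CPM. Summed over the 18 G2 and mitosis genes the level was 145 ± 6.18 (SD, n = 3) CPM in scramble vehicle, 106 ± 5.72 (SD, n = 3) CPM in scramble 915, 124 ± 6.45 (SD, n = 3) CPM in knockdown vehicle and 114 ± 10.4 (SD, n = 3) CPM in knockdown 915 libraries. The sum did not overlap between scramble vehicle (139 to 151) and scramble 915 (99.2 to 109), while the knockdown groups overlapped at 119 to 131 and 105 to 126. The replication sum was 341 ± 2.93 (SD, n = 3) CPM in scramble vehicle and 321 ± 8.73 (SD, n = 3) CPM in scramble 915 libraries.

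Further genes of the same pathways, from lists drawn up with earlier results of these data known, were tested in the same fits. With 915 in scramble cells 10 of 36 tested G2 and mitosis genes outside the 40 fell and 3 rose, 2 of 26 replication genes fell and 2 rose, and 7 of 23 G1 genes fell and 5 rose, against 20.6% lower and 21.5% higher over all genes. Anln, the anillin of the contractile ring, changed by −1.31 (SE 0.16), Tpx2 of the spindle by −0.43 (SE 0.12) and Prc1 of the central spindle by −0.49 (SE 0.14). Cdc25b, a phosphatase that activates Cdk1, rose by 0.61 (SE 0.10), Cks1b by 0.47 (SE 0.09) and Stmn1, a microtubule regulator, by 0.31 (SE 0.10). Among G1 genes Gadd45b changed by −1.02 (SE 0.08) and Cdk6 by −0.60 (SE 0.12), while Btg2 rose by 0.68 (SE 0.06) and Myc by 0.92 (SE 0.08). Of the replication genes Mcm10 changed by −1.18 (SE 0.26), Chaf1a by −0.42 (SE 0.12), Fen1 by 0.56 (SE 0.16) and Rfc4 by 0.56 (SE 0.16).

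With 915 in knockdown cells 4 of these 36 G2 and mitosis genes fell and 2 rose, 1 of 26 replication genes fell, and 7 of 23 G1 genes fell and 5 rose, against 17.6% lower and 18.1% higher over all genes. The shares of G2 and mitosis and of replication genes called were thus under the background in both directions. Anln changed by −0.98 (SE 0.15) there, Dut, which clears dUTP, by −0.32 (SE 0.09) and Ccng1, a cyclin G, by −0.36 (SE 0.05). With the knockdown in vehicle cells 2 of 36, 0 of 26 and 3 of 23 fell and 4 G1 genes rose, against 12.7% lower and 7.75% higher over all genes, with E2f6 at −0.67 (SE 0.06), Cks1b at −0.66 (SE 0.10) and Btg2 at 0.57 (SE 0.06). With 915, knockdown cells had 3 higher and 2 lower of 36, 3 lower of 26, and 6 higher and 6 lower of 23, against 16.2% higher and 17.7% lower over all genes. The difference of the 915 effects called Gadd45b (log2 change 0.46, SE 0.11, adjusted p = 0.0315) and Ccng1 (log2 change −0.35, SE 0.08, adjusted p = 0.00851). Among the genes higher in knockdown cells with 915 was Mybl2, a factor of the mitotic gene program, at 0.91 (SE 0.22).

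Markers of other cell types moved with 915 in the rat cultures. The sum of 8 smooth muscle and pericyte markers was 5466 ± 158 (SD, n = 3) CPM in scramble vehicle and 2359.6 ± 252 (SD, n = 3) CPM in scramble 915 libraries, with 6 of 8 called lower. In knockdown cells it was 5767 ± 339 (SD, n = 3) CPM with vehicle and 2987 ± 276 (SD, n = 3) CPM with 915, with 6 of 8 called lower and 2 higher. The 10 fibroblast markers summed to 14329.8 ± 537 (SD, n = 3) CPM in scramble vehicle and 7911 ± 398 (SD, n = 3) CPM in scramble 915 libraries, with 6 called lower and Dcn called higher. These sums did not overlap between vehicle and 915. In knockdown cells the fibroblast sum was 13156 to 14568 CPM with vehicle and 8873 to 11235 CPM with 915, with 3 of 10 called lower and 1 higher. The 8 cardiomyocyte markers summed to 15434 ± 836 (SD, n = 3) CPM in scramble vehicle and 20872 ± 584 (SD, n = 3) CPM in scramble 915 libraries, with 4 called higher and 1 lower. In knockdown cells that sum was 9679 to 10043 CPM with vehicle and 7763 to 9941 CPM with 915, which overlapped. The leukocyte sum was 31.7 ± 2.15 (SD, n = 3) and 39.5 ± 0.438 (SD, n = 3) CPM in scramble cells and 53.9 ± 1.47 (SD, n = 3) and 72.9 ± 9.43 (SD, n = 3) CPM in knockdown cells, with vehicle and with 915 in turn. The endothelial sum was 36.8 ± 0.788 (SD, n = 3) and 42.2 ± 2.34 (SD, n = 3) CPM in scramble cells and 46.9 ± 0.722 (SD, n = 3) and 61.0 ± 2.41 (SD, n = 3) CPM in knockdown cells. Both sums were higher in every 915 library than in any vehicle library of the same siRNA, but single markers differed. Of 6 leukocyte markers tested, 1 was called higher in scramble and 2 in knockdown cells. None was called lower, yet 3 of the 6 had fold changes below 0 in each. Of 7 endothelial markers tested, 1 was called higher in scramble cells, and 4 higher and 1 lower in knockdown cells. The part of these cell types in the members' levels was not tested.

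In mouse hearts given vehicle, TAC was followed by higher transcripts of mitosis genes, and Cenpf went the other way. Of 39 members tested 16 rose and 5 fell, against 26.4% of all 14047 genes called, 13.5% higher and 12.8% lower. The median log2 change was 0.71, against −0.01 for all genes. By role, 12 of 18 G2 and mitosis genes rose and 1 fell, 1 of 10 replication genes rose and 1 fell, and 3 of 11 G1 genes rose and 3 fell. The mitosis genes were low, and 4 of them (Ccnb1, Ccnb2, Plk1 and Bub1) reached the low-count limit of 0.723 CPM in fewer than 3 libraries outside the TAC vehicle group, so their passing the filter itself rested on that group. Without these 4 genes 14 of 35 members rose and 5 fell, with a median log2 change of 0.49, and 10 of 14 G2 and mitosis genes rose and 1 fell. Cdk1, Cenpe, Foxm1, Aurka, Birc5 and E2f1 are still in these counts. They reached the limit in fewer than 3 sham hearts, so their passing the filter rested on TAC hearts, for either comparison of TAC against sham. Counts that hold these genes therefore lean towards a rise after TAC. Members called were 13 without sham vehicle replicate 1, 10 without sham vehicle replicate 3 and 13 without TAC vehicle replicate 3, in place of 21. Over all genes these fits called 2834 of 14318, 2437 of 14320 and 2893 of 14009 in turn. In this comparison 6 members kept their call under all 15 alternatives: Mki67, Top2a, Ccna2, Kif20a, Cdkn1a and Cenpf. Bub1 kept its call in the 11 alternatives in which it passed the filter and could be tested. Its passing rested on the TAC vehicle hearts, where it was high, so this does not show a stable call.

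Mki67, which coats mitotic chromosomes and is the standard mark of cycling cells, stood at 2.58, 3.13 and 2.67 CPM in the sham vehicle hearts and at 7.57, 6.72, 9.23, 5.81 and 7.89 CPM in the TAC vehicle hearts, a log2 change of 1.43 (SE 0.33, adjusted p = 0.00415). Top2a stood at 1.41, 1.48 and 1.18 CPM in the sham vehicle hearts and at 4.04, 4.71, 4.76, 3.52 and 4.23 CPM in the TAC vehicle hearts, a change of 1.64 (SE 0.32, adjusted p = 0.000783). For both, every TAC heart lay above every sham heart. Ccna2 was at 1.33, 0.869 and 0.518 CPM in the sham vehicle hearts and at 3.22, 1.42, 3.22, 2.02 and 1.96 CPM in the TAC vehicle hearts (log2 change 1.44, SE 0.34, adjusted p = 0.00351), and Kif20a, a kinesin of cytokinesis, at 1.02, 0.869 and 0.666 CPM in the sham vehicle hearts and at 2.02, 1.49, 3.44, 1.96 and 2.27 CPM in the TAC vehicle hearts (log2 change 1.36, SE 0.32, adjusted p = 0.00380). Neither overlapped, though the lowest TAC heart came close to the highest sham heart for Ccna2. Bub1, a spindle checkpoint kinase, had 3 counts in all in the sham vehicle hearts and 52 in the TAC vehicle hearts. Per library that was 0.0783, 0.0869 and 0.0740 CPM and 0.504, 0.581, 0.953, 0.914 and 0.505 CPM, a ratio of pooled counts of 9.56 (95% exact interval 3.10 to 47.9, counting error only; fitted adjusted p = 0.00380). Each sham vehicle library held 1 count of Bub1, so its fold is loosely set. The pooled ratio was computed only where the sham vehicle hearts held 3 counts or fewer. It therefore describes a gene picked for a low sham level and is no support for a rise.

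The remaining mitosis genes that rose did so less firmly. Cdk1 stood at 0.470, 0.522 and 0.518 CPM in the sham vehicle hearts and at 1.51, 1.23, 1.98, 1.04 and 1.45 CPM in the TAC vehicle hearts (log2 change 1.60, SE 0.46) and Kif11 at 0.705, 1.48 and 0.666 CPM in the sham vehicle hearts and at 2.08, 2.00, 2.42, 1.70 and 2.15 CPM in the TAC vehicle hearts (log2 change 1.15, SE 0.34). Neither gene overlapped between the groups, and both lost their call without sham vehicle replicate 1 (adjusted p = 0.0539 for Cdk1 and 0.0794 for Kif11) or replicate 3 (adjusted p = 0.0535 and 0.0960). Aurka, a kinase of the spindle poles, was at 0.313, 0.348 and 0.0740 CPM in the sham vehicle hearts and at 0.757, 0.581, 1.10, 0.718 and 0.820 CPM in the TAC vehicle hearts (log2 change 1.61, SE 0.51). Ccnb1, the mitotic cyclin, was at 0.392, 0.522 and 0.370 CPM in the sham vehicle hearts and at 1.01, 0.840, 2.13, 0.457 and 0.631 CPM in the TAC vehicle hearts (log2 change 1.53, SE 0.49), and Foxm1, the transcription factor of the mitotic wave, at 0.627, 0.435 and 0.740 CPM in the sham vehicle hearts and at 1.64, 2.00, 1.76, 0.783 and 0.820 CPM in the TAC vehicle hearts (log2 change 1.34, SE 0.43). Of these 3 only Ccnb1 overlapped between the groups. Cenpe, a kinetochore motor, was at 0.705, 0.261 and 0.148 CPM in the sham vehicle hearts and at 1.39, 0.904, 0.953, 0.914 and 0.820 CPM in the TAC vehicle hearts (log2 change 1.38, SE 0.51), and Cenpa, the histone of the centromere, at 25.2, 26.3 and 25.8 CPM in the sham vehicle hearts and at 29.4, 32.2, 35.2, 29.2 and 35.9 CPM in the TAC vehicle hearts (log2 change 0.32, SE 0.10). Aurka lost its call without sham vehicle replicate 3 or TAC vehicle replicate 3 or with no low-count filter (adjusted p from 0.0537 to 0.146). Ccnb1 lost it without sham vehicle replicate 1, 2 or 3 or TAC vehicle replicate 3 or with no run term (adjusted p from 0.0546 to 0.128). Foxm1 lost it without sham vehicle replicate 1, 2 or 3 or TAC vehicle replicate 2 or 3 or with no run term (adjusted p from 0.0563 to 0.111). Cenpe lost it without sham vehicle replicate 2 or 3 or TAC vehicle replicate 1, 2, 3, 4 or 5 or with DESeq2 or with no low-count filter (adjusted p from 0.0502 to 0.230). Cenpa lost it without sham vehicle replicate 1, 2 or 3 or TAC vehicle replicate 3 or 5 (adjusted p from 0.0523 to 0.0914). The coding transcript Cenpa-205 held 23.4% of the Cenpa counts in sham vehicle and 18.9% in TAC vehicle hearts. Cenpa-208, which keeps an intron, held 28.2% and 30.7%. The shares of the other coding transcripts, Cenpa-206 and Cenpa-209, were also smaller after TAC. The rise of Cenpa is thus one of all its transcripts together and is not shown for the coding ones.

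Cenpf fell in TAC hearts. It stood at 22.6, 28.1 and 32.9 CPM in the sham vehicle hearts and at 3.22, 4.33, 2.42, 4.76 and 3.15 CPM in the TAC vehicle hearts, a log2 change of −2.95 (SE 0.34, adjusted p = 5.54e-05). The groups were far apart, with the lowest sham heart several times above the highest TAC heart. In 332-treated hearts the same gene was at 28.1, 28.5, 44.7, 39.9 and 30.5 CPM after sham and at 4.98, 6.79, 3.32, 1.41 and 6.26 CPM after TAC (log2 change −2.90, SE 0.29, adjusted p = 1.96e-05). Thus all 8 sham hearts were above all 10 TAC hearts. The transcript Cenpf-204 of 11130 bases carried 97.2% of its counts in sham vehicle, 96.2% in TAC vehicle, 97.0% in sham 332 and 97.3% in TAC 332 hearts. Its promoter, printed above, holds 2 CCAAT matches before the start. In the rat cultures Cenpf lay between 2.92 and 7.04 CPM in all 12 libraries.

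**Figure D3:**
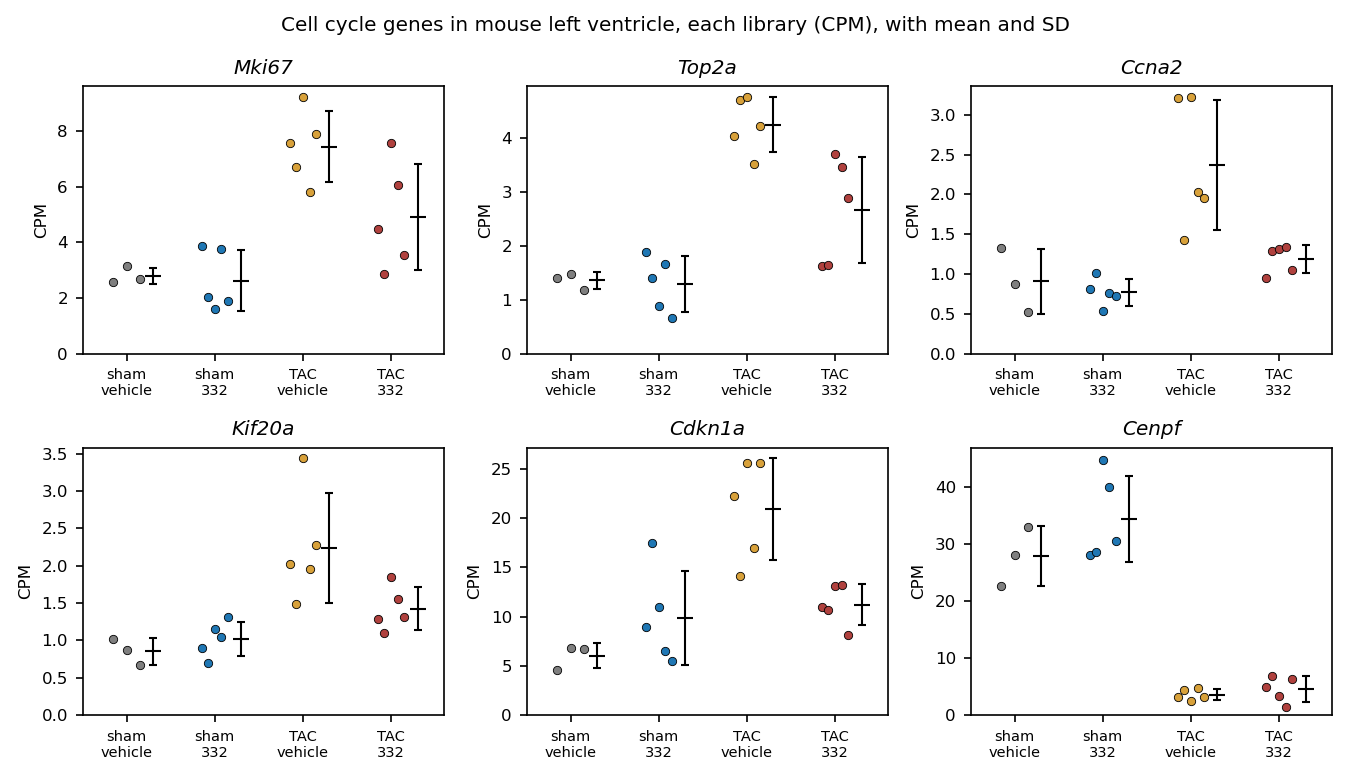
CPM of Mki67, Top2a, Ccna2, Kif20a, Cdkn1a and Cenpf in each mouse heart; points are libraries (3 sham vehicle, 5 in each other group) and the bar beside them is the mean with the SD. TAC vehicle hearts lie above sham vehicle hearts for the first 5 genes, and for Cenpf all TAC hearts lie at 6.79 CPM or less against 22.6 CPM or more in sham hearts.

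Among the G1 genes Cdkn1a rose. It stood at 4.54, 6.78 and 6.74 CPM in the sham vehicle hearts and at 22.3, 14.1, 25.6, 16.97 and 25.6 CPM in the TAC vehicle hearts, a log2 change of 1.93 (SE 0.34, adjusted p = 0.00107), with no overlap. Ccnd1 was at 51.5, 57.2 and 45.5 CPM in the sham vehicle hearts and at 71.4, 84.7, 67.8, 70.7 and 78.9 CPM in the TAC vehicle hearts (log2 change 0.53, SE 0.14) and Ccnd2 at 85.8, 90.1 and 69.7 CPM in the sham vehicle hearts and at 101, 190.2, 131, 151 and 192 CPM in the TAC vehicle hearts (log2 change 0.86, SE 0.20), also without overlap. Ccnd1 missed the threshold without sham vehicle replicate 3 (adjusted p = 0.0586) and Ccnd2 when only the 2 groups were fitted (adjusted p = 0.0811). The inhibitors Cdkn1b and Cdkn1c fell, against the rise of Cdkn1a. Cdkn1b was at 36.9, 32.1 and 38.7 CPM in the sham vehicle hearts and at 30.5, 28.1, 25.6, 30.2 and 25.4 CPM in the TAC vehicle hearts (log2 change −0.37, SE 0.10), and Cdkn1c at 12.3, 11.5 and 14.0 CPM in the sham vehicle hearts and at 7.38, 8.40, 6.16, 14.4 and 10.3 CPM in the TAC vehicle hearts (log2 change −0.76, SE 0.16, adjusted p = 0.00180). Cdkn1c overlapped between the groups, and with no term for the presumed sequencing run its adjusted p was 0.310. Cdkn1b was lost without sham vehicle replicate 3 (adjusted p = 0.0561). Cdk2 was at 9.40, 9.30 and 10.4 CPM in the sham vehicle hearts and at 8.26, 7.62, 5.72, 7.83 and 5.87 CPM in the TAC vehicle hearts (log2 change −0.38, SE 0.14), and 9 of 15 alternatives ended its call, among them without sham vehicle replicate 1, 2 or 3 or TAC vehicle replicate 2, 3 or 5 or with DESeq2 or with no low-count filter or with only the groups compared (adjusted p from 0.0655 to 0.165). E2f1 was not called at 0.392, 0.435 and 0.370 CPM in the sham vehicle hearts and at 0.567, 1.23, 0.806, 1.24 and 1.83 CPM in the TAC vehicle hearts (log2 change 1.07, SE 0.44, adjusted p = 0.0751), although every TAC heart was above every sham heart, and it was called with no run term (adjusted p = 0.0461).

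Of the 10 replication genes 8 were not called, while 26.4% of all genes were called. Tyms, which makes thymidylate, rose from 1.17, 1.22 and 1.48 to 2.27, 2.52, 2.86, 1.44 and 2.65 CPM (log2 change 0.82, SE 0.29), and Rrm1 fell from 12.8, 13.9 and 13.5 to 9.84, 11.3, 12.1, 11.6 and 10.7 CPM (log2 change −0.34, SE 0.12). Tyms lost its call without sham vehicle replicate 1, 2 or 3 or TAC vehicle replicate 1, 2, 3 or 5 or with DESeq2 or with no low-count filter (adjusted p from 0.0543 to 0.130). Rrm1 lost it without sham vehicle replicate 1, 2 or 3 or TAC vehicle replicate 1, 4 or 5 or with DESeq2 or in the first run alone or with no low-count filter or with no run term or with only the groups compared (adjusted p from 0.0517 to 0.159). Pcna was not called, at 27.0, 27.5 and 21.4 CPM in the sham vehicle hearts and at 24.6, 24.7, 23.0, 21.1 and 21.5 CPM in the TAC vehicle hearts (log2 change −0.08, SE 0.10, adjusted p = 0.579). Summed over the 10 replication genes the level was 73.9 ± 3.71 (SD, n = 3) CPM in sham vehicle and 71.1 ± 5.55 (SD, n = 5) CPM in TAC vehicle hearts, and the ranges overlapped.

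Names in the deposited data set replicates 1 to 3 of each group apart from replicates 4 and 5, and were read here as a first and a second sequencing run. The labels state no run, so what sets these replicates apart is not known. No sham vehicle heart was in the second run, which alone therefore gives no value for this comparison. Within the first run alone 19 of 37 members tested were called in TAC vehicle hearts, against 3092 of 13694 genes. There the log2 change was 1.53 (SE 0.39) for Ccna2, 1.74 (SE 0.32) for Top2a, 1.79 (SE 0.29) for Cdkn1a and −3.05 (SE 0.30) for Cenpf.

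In hearts given 332, TAC against sham called fewer members, 9 higher and 3 lower of 39, against 23.8% of all genes, 11.8% higher and 12.1% lower. The median log2 change was 0.33. By role, 3 of 18 G2 and mitosis genes rose and 1 fell, 2 of 10 replication genes rose and 0 fell, and 4 of 11 G1 genes rose and 2 fell. Fold changes after TAC were below 0 for 1 of the 18 G2 and mitosis genes (Cenpf) with 332 as with vehicle. Their median was 0.47 with 332 and 1.35 with vehicle. Ccnb1, Ccnb2, Plk1, Bub1, Cdk1, Cenpe, Foxm1, Aurka and Birc5 reached the low-count limit in fewer than 3 sham hearts. Their passing the filter rested on TAC hearts, so these counts and medians lean towards a rise. Without the first 4 of these genes 1 of 14 was below 0 in each comparison, with medians of 0.52 (332) and 1.35 (vehicle). Ccnd1 rose from 64.9, 45.6, 50.7, 58.9 and 50.1 CPM in sham 332 hearts to 77.2, 63.9, 90.3, 92.7 and 69.6 CPM in TAC 332 hearts (log2 change 0.54, SE 0.11, adjusted p = 0.00212), and this call and that of Cenpf held under every alternative. The Ccnd1 ranges overlapped by 1 low TAC heart and 1 high sham heart. Ccnd2 rose from 88.2, 83.7, 85.3, 86.5 and 87.2 to 127, 124, 165, 158 and 108 CPM (log2 change 0.66, SE 0.16, adjusted p = 0.00799), with no overlap, though not in the first run alone (adjusted p = 0.0674). Cdkn1b was at 35.7, 36.7, 34.9, 39.0 and 36.8 and 32.1, 32.3, 25.6, 25.8 and 33.7 CPM (log2 change −0.29, SE 0.08), again apart, and Cdkn1c at 11.4, 12.6, 11.4, 17.3 and 23.6 and 7.12, 7.04, 9.57, 8.90 and 13.8 CPM (log2 change −0.70, SE 0.14), with overlap. Cdkn1b lost its call in the first run alone (adjusted p = 0.136). Cdkn1c lost it with no run term (adjusted p = 0.0506). With these limits, Ccnd1 and Ccnd2 were called higher and Cdkn1b and Cdkn1c lower after TAC in both treatments.

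Cdkn1a was not called with 332. It stood at 8.96, 17.5, 10.9, 6.54 and 5.45 CPM in sham 332 and at 10.98, 10.6, 13.1, 13.2 and 8.10 CPM in TAC 332 hearts (log2 change 0.21, SE 0.27, adjusted p = 0.623), and the ranges overlapped. Top2a rose from 1.88, 1.40, 0.883, 1.67 and 0.654 to 1.63, 1.65, 3.70, 3.46 and 2.90 CPM (log2 change 1.04, SE 0.27), and Kif11 from 1.08, 0.622, 0.794, 0.974 and 0.509 to 1.63, 1.10, 2.62, 2.12 and 1.84 CPM (log2 change 1.22, SE 0.29). Mki67 was at 3.85, 2.02, 1.59, 3.76 and 1.89 and 4.46, 2.88, 7.56, 6.07 and 3.56 CPM (log2 change 0.89, SE 0.28, adjusted p = 0.0276). Kif11 alone of these 3 did not overlap, and Mki67 lost its call without sham 332 replicate 2, 3 or 5 or TAC 332 replicate 3 or 4 or in the first run alone or with only the groups compared (adjusted p from 0.0698 to 0.0967). In the first run alone Top2a (log2 change 0.75, SE 0.34, adjusted p = 0.167) and Kif11 (log2 change 1.10, SE 0.40, adjusted p = 0.0809) were not called. The count of members called there was 4 of 37 in place of 12, against 1662 of 13694 genes. Cdk1 was not called, at 0.448, 0.622, 0.177, 0.557 and 0.509 and 0.429, 0.795, 2.16, 0.918 and 0.593 CPM (log2 change 1.02, SE 0.40, adjusted p = 0.0661), but was called without TAC 332 replicate 1 (adjusted p = 0.0274) or 5 (adjusted p = 0.0450).

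Of the other members called with 332, Tyms rose from 1.08, 0.777, 1.41, 1.60 and 1.16 to 1.80, 1.84, 2.47, 3.18 and 1.84 CPM (log2 change 0.88, SE 0.24) and Mcm6 from 6.10, 4.82, 4.94, 7.03 and 7.27 to 8.49, 6.06, 8.87, 11.1 and 8.04 CPM (log2 change 0.50, SE 0.13). Tyms lost its call without TAC 332 replicate 4 or in the first run alone (adjusted p from 0.0525 to 0.0600), and Mcm6 with no run term (adjusted p = 0.0520). E2f1 was at 0.717, 0.311, 0.177, 0.974 and 0.872 and 0.772, 0.857, 1.00, 2.12 and 0.988 CPM (log2 change 0.92, SE 0.33), and Ccnd3 at 32.2, 29.2, 31.4, 28.0 and 27.3 and 32.003, 33.1, 38.6, 32.7 and 33.1 CPM (log2 change 0.20, SE 0.06). E2f1 missed the threshold in 14 and Ccnd3 in 9 of 17 alternatives. Among these, E2f1 lost its call without sham 332 replicate 2, 3, 4 or 5 or TAC 332 replicate 1, 2, 3 or 4 or with DESeq2 or in the first run alone or with no low-count filter or with no run term or with only the groups compared (adjusted p from 0.0554 to 0.175). Ccnd3 lost it without sham 332 replicate 2 or 5 or TAC 332 replicate 3, 4 or 5 or in the first run alone or with no low-count filter or with no run term or with only the groups compared (adjusted p from 0.0560 to 0.232).

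**Figure D4:**
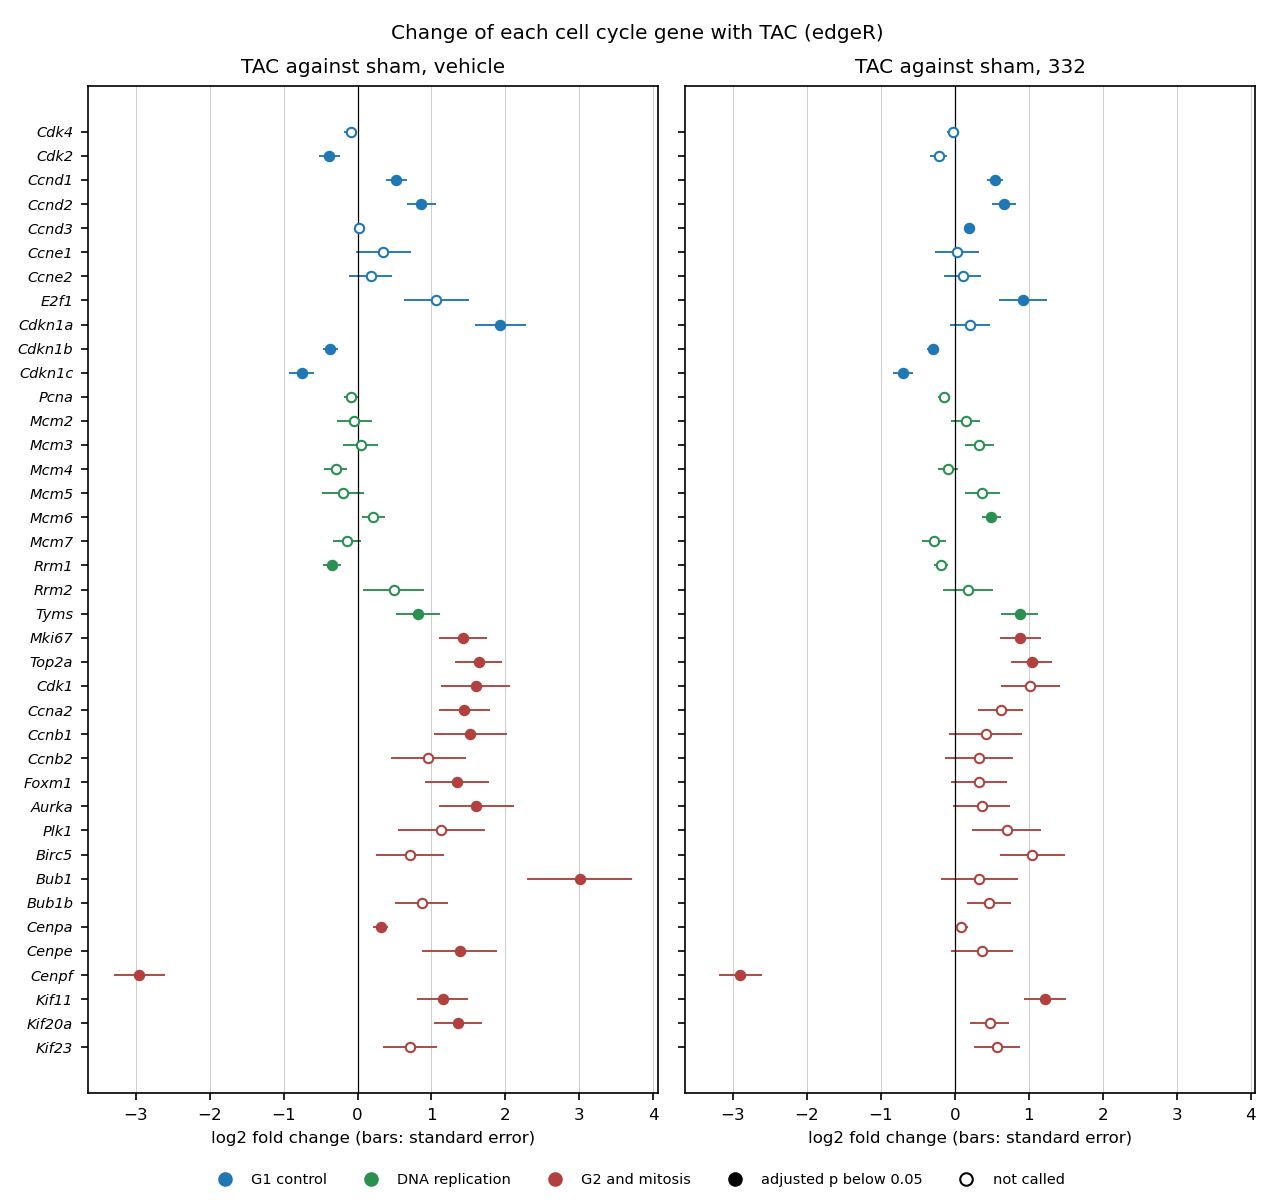
Log2 fold change of each of the 39 tested mouse members with TAC against sham, in vehicle hearts (left) and in 332 hearts (right); bars are standard errors, filled points passed an adjusted p of 0.05 and colours give the role. In both panels 17 of the 18 G2 and mitosis genes sit right of 0, and Cenpf sits at −2.95 with vehicle and at −2.90 with 332. Of the 17, Ccnb1, Ccnb2, Plk1, Bub1, Cdk1, Cenpe, Foxm1, Aurka and Birc5 passed the low-count filter through TAC hearts, so the count leans towards a rise.

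The direct effect of 332 in TAC hearts passed for no member in edgeR, where 0.427% of all genes were called (0.135% higher and 0.292% lower). At an unadjusted p below 0.05 there were 10 of 39 members, 9 lower and 1 (Ccnd3) higher, against 1779 of all 14047 genes in either direction. DESeq2 called 1 of the 26 members to which it gave an adjusted p, Cdkn1a (adjusted p = 0.0172), and edgeR without the low-count filter called 4: Cdkn1a, Mki67, Top2a and Ccna2. Cdkn1a stood at 22.3, 14.1, 25.6, 16.97 and 25.6 CPM with vehicle and 10.98, 10.6, 13.1, 13.2 and 8.10 CPM with 332 (log2 change −0.91, SE 0.25, adjusted p = 0.141). Every 332 heart lay under every vehicle heart. Ccna2 stood at 3.22, 1.42, 3.22, 2.02 and 1.96 and 0.944, 1.28, 1.31, 1.34 and 1.05 CPM (log2 change −0.97, SE 0.26, adjusted p = 0.103), also without overlap, and it was called without TAC vehicle replicate 2 (adjusted p = 0.0470). Mki67 at 4.46, 2.88, 7.56, 6.07 and 3.56 CPM with 332 (log2 change −0.61, SE 0.25, adjusted p = 0.294) and Top2a at 1.63, 1.65, 3.70, 3.46 and 2.90 CPM (log2 change −0.67, SE 0.23, adjusted p = 0.210) overlapped with the vehicle hearts.

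Fold changes with 332 in TAC hearts were below 0 for 17 of the 18 G2 and mitosis genes tested, against 47.7% of all genes, with a median of −0.61. Without the 4 genes that passed the low-count filter only through the TAC vehicle hearts, the reference here, the count was 13 of 14, with a median of −0.59. This comparison shares its TAC vehicle hearts with that of TAC against sham. Cenpf was the exception, at 0.36. The 17 G2 and mitosis genes other than Cenpa and Cenpf, Aurkb among them, summed to 12.4 ± 1.25 (SD, n = 3) CPM in sham vehicle and 12.3 ± 2.75 (SD, n = 5) CPM in sham 332 hearts. After TAC the sums were 31.1 ± 6.34 (SD, n = 5) CPM with vehicle and 20.8 ± 5.85 (SD, n = 5) CPM with 332. The TAC vehicle hearts (24.3 to 40.9) stood clear of both sham groups, and the TAC 332 hearts (13.7 to 28.0) overlapped with the TAC vehicle hearts and, by the lowest heart, with both sham groups.

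In sham hearts no member was called with 332, and 0.00712% of all genes were. DESeq2 called 0 of 40 members, and edgeR without the low-count filter called Cdkn1a (adjusted p = 1.09e-05). In the main edgeR fit 2 of 39 members (Cdkn1a and Birc5) had an unadjusted p below 0.05, against 685 of all 14047 genes. Cdkn1a was at 4.54, 6.78 and 6.74 CPM with vehicle and 8.96, 17.5, 10.9, 6.54 and 5.45 CPM with 332 (log2 change 0.81, SE 0.35, adjusted p = 0.997). Mki67 was at 3.85, 2.02, 1.59, 3.76 and 1.89 CPM with 332 (log2 change −0.07, SE 0.36, adjusted p = 1.00), which overlapped with vehicle.

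The difference of the 332 effects between TAC and sham hearts passed for no member in edgeR, with 0.0641% of all genes called (0.0214% higher and 0.0427% lower). At an unadjusted p below 0.05 stood 3 of 39 members (Cdkn1a, Bub1 and Kif20a), against 1406 of all 14047 genes. Cdkn1a had a difference of −1.72 (SE 0.43, adjusted p = 0.158), and both DESeq2, which gave 33 members an adjusted p (for Cdkn1a, adjusted p = 0.00354) and edgeR without the low-count filter called it. For Mki67 the difference was −0.54 (SE 0.43, adjusted p = 0.736) and for Top2a −0.60 (SE 0.42, adjusted p = 0.678). With SEs of this size, the test misses of the mitosis genes do not show that 332 acted alike in TAC and sham hearts.

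The 15 mouse members called in no comparison of the main fit were Cdk4, Ccne1, Ccne2, Pcna, Mcm2, Mcm3, Mcm4, Mcm5, Mcm7, Rrm2, Ccnb2, Plk1, Birc5, Bub1b and Kif23. They ran from 0.0883 CPM (Birc5) to 31.0 CPM (Cdk4) over the 18 hearts. For TAC with vehicle, edgeR called Bub1b without sham vehicle replicate 3 (adjusted p = 0.0476) or TAC vehicle replicate 4 (adjusted p = 0.0422). For TAC with 332, it called Birc5 without sham 332 replicate 1 (adjusted p = 0.0469) and Mcm3 without TAC 332 replicate 2 (adjusted p = 0.0286). Aurkb, which was not tested, stood at 0, 0.261 and 0.222 CPM in sham vehicle and 0.504, 0.646, 0.586, 0.261 and 0.252 CPM in TAC vehicle hearts, between 0 and 0.777 CPM over all hearts. A processed copy of Ccnb2, Ccnb2-ps, reached 0.494 CPM, the level of the gene itself, so the value of Ccnb2 is uncertain.

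The same lists were tested in mouse. With TAC in vehicle hearts, of 31 tested G2 and mitosis genes outside the 40, 9 rose and 1 fell, against 13.5% higher and 12.8% lower over all genes. Prc1 rose by 1.48 (SE 0.39), Racgap1, which works with Kif23 at the central spindle, by 1.37 (SE 0.37) and Spc25 of the kinetochore by 1.86 (SE 0.53), while Pttg1, the securin gene, changed by −0.50 (SE 0.09). Of 22 replication genes 0 rose and 2 fell, Dut at −0.87 (SE 0.13) and Rpa2 at −0.49 (SE 0.12). Of 23 G1 genes 5 rose and 2 fell, with Myc at 1.51 (SE 0.31), E2f6 at 0.29 (SE 0.06) and E2f3 at 0.59 (SE 0.14), against Gadd45b at −0.92 (SE 0.22) and Cdkn2c, an inhibitor of Cdk4, at −0.45 (SE 0.16). With TAC in 332 hearts 3 of the 31 rose and 1 fell, 1 of the 22 rose and 3 fell, and 3 of the 23 rose and 2 fell, against 11.8% higher and 12.1% lower over all genes. Among these, Pbk was at 1.92 (SE 0.56), Tacc3 at 0.86 (SE 0.28), Cks2 at 1.39 (SE 0.48) and Uhrf1 at 1.25 (SE 0.32).

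Markers of fibroblasts moved with TAC in both treatments, and some markers of leukocytes in vehicle hearts. The 10 fibroblast markers summed to 680.0 ± 46.6 (SD, n = 3) CPM in sham vehicle, 700.0 ± 33.6 (SD, n = 5) CPM in sham 332, 1757 ± 428 (SD, n = 5) CPM in TAC vehicle and 1553 ± 683 (SD, n = 5) CPM in TAC 332 hearts. After TAC 8 of 10 rose with vehicle and 7 of 10 with 332. The 12 leukocyte markers summed to 204 ± 27.3 (SD, n = 3) CPM in sham vehicle, 207 ± 31.3 (SD, n = 5) CPM in sham 332, 281 ± 31.2 (SD, n = 5) CPM in TAC vehicle and 210.2 ± 30.9 (SD, n = 5) CPM in TAC 332 hearts. Of the 11 tested, 3 rose after TAC with vehicle (Fcgr3, C1qc and Lyz2) and 0 with 332 in edgeR, where none had an unadjusted p below 0.05. Fcgr3, an Fc receptor gene, was lower with 332 in TAC hearts (log2 change −0.73, SE 0.15, adjusted p = 0.0333). Cd3e was at or near 0 in every heart, the endothelial sum ran from 1011 to 1301 CPM with overlap among all groups, and 5 of 8 cardiomyocyte markers fell after TAC with vehicle and 6 of 8 with 332, while 1 rose in each. The part of these cell types in the members' levels was not tested.

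**Figure D5:**
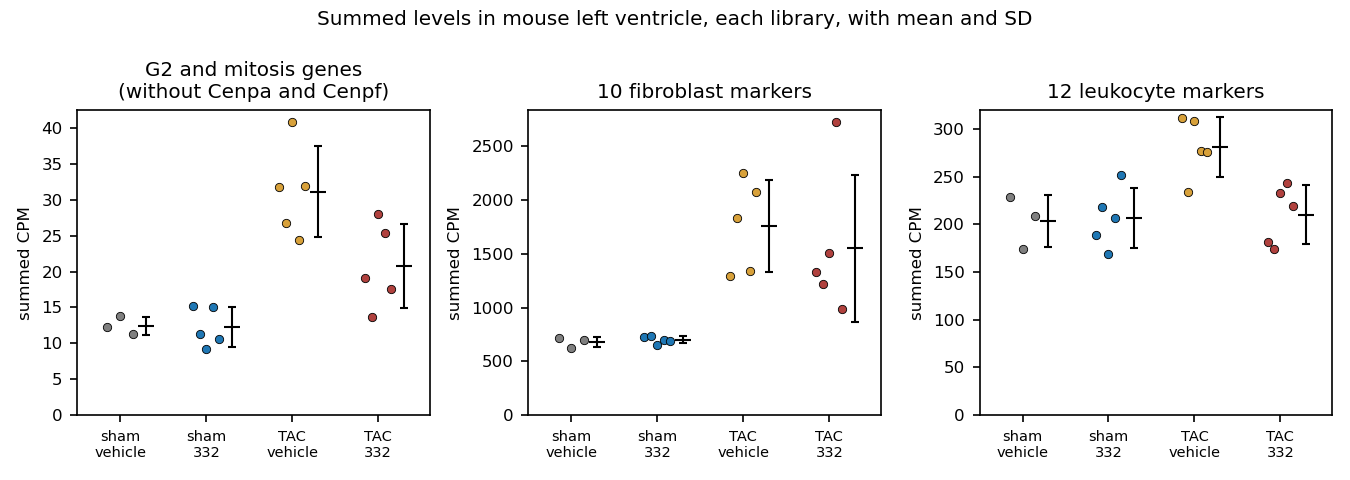
Summed CPM per mouse heart of 17 G2 and mitosis genes (without Cenpa and Cenpf), of 10 fibroblast markers and of 12 leukocyte markers; points are libraries and the bar beside them is the mean with the SD. The mitosis sum runs from 24.3 to 40.9 CPM in TAC vehicle hearts and from 13.7 to 28.0 CPM in TAC 332 hearts, against 15.2 CPM or less in sham hearts.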

How the data were processed

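The 12 rat libraries (4 groups of 3) came as the authors' deposited table of whole gene counts per the file headers, with the authors' FPKM, log2 fold changes and adjusted p-values beside them. The submitters' processing notes name rn6 as the rat build and 4 tools, DESeq2 1.20.0, featureCounts 1.5.0-p3, HISAT2 2.0.5 and StringTie 1.3.3b. Their second cDNA strand was made with dTTP, which marks no strand, per the labels' protocols. The 18 mouse libraries came as deposited estimated counts and TPM per transcript per the file headers, made with fastp and Salmon per the submitters' processing notes, with versions and build not given in the sources used here. Mouse estimated counts were summed per gene and rounded. Without strand, overlapping rat genes cannot be told apart.

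Genes passing filterByExpr (minimum count 10) were fitted in edgeR 4.0.16 (R 4.3.3) by quasi-likelihood with robust dispersion after TMM scaling, all groups of a species together. The mouse fit held a run term, with the run read from names and not from the labels. The p-values were Benjamini-Hochberg adjusted over 15181 rat and 14047 mouse genes, with a call at 0.05. SEs are the fold change over the root of F. The biological coefficient of variation was 0.104 in rat and 0.117 in mouse, and the fits were tested on simulated data. Total counts of 12013379 to 18315341 (rat) and 11375894 to 16599899 (mouse) limit the precision of genes near 1 CPM most.

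Members and lists were chosen with earlier results of these data known. Values per library are given for members called in any comparison and for Mki67, Top2a, Cdk1, Pcna, Ccnd1, Cdkn1a and E2f1. Genes of the other lists are named by smallest adjusted p, up to 3 per direction. Marker lists covered cardiomyocytes, fibroblasts, endothelial cells, smooth muscle with pericytes, and leukocytes. No libraries of a group agreed within sampling noise. Alternatives were DESeq2 1.42.0 (Wald), RLE size factors, a fit of only the groups compared, no low-count filter, a replicate block, non-robust dispersion, no run term, the first run alone, and each library left out.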

Additional observations from a re-analysis of the deposited data

Results flagged for a closer look

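For 25 members in the 3 mouse groups of 5 hearts (75 sets of values), 1 heart stood apart from the others of its group in 6 cases by Dixon's 95% limit, which chance passes in about 1 of 20 groups. In TAC 332 hearts, replicate 3 was highest for Bub1 (0.772 CPM, the others 0.122 to 0.283), for Ccnd3 (38.6 CPM, the others 32.0 to 33.1) and for Cdk1 (2.16 CPM, the others 0.429 to 0.918). E2f1 was highest in TAC 332 replicate 4 (2.12 CPM, the others 0.772 to 1.00), the heart with the highest sum of fibroblast markers in its group (2729 CPM), whose part was not tested. Cenpe was highest in TAC vehicle replicate 1 (1.39 CPM, the others 0.820 to 0.953). Cdk2 was lowest in sham 332 replicate 5 (6.76 CPM, the others 8.77 to 9.50).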

How the results depend on the processing

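Of the 81 calls of members, 29 held in every alternative in which the gene was tested (Bub1 in 11 of 15 for TAC with vehicle, the others in all), 52 were lost in at least 1, and 0 changed sign. Without the low-count filter the members called were 1 for the difference of the 915 effects, 4 for 332 in TAC hearts, 1 for 332 in sham hearts and 1 for the difference of the 332 effects, and with DESeq2 they were 1 for 332 in TAC hearts and 1 for the difference of the 332 effects, each against 0. In the first run alone 4 in place of 12 were called for TAC with 332. Leaving out each library gave 11 to 16 for 915 in scramble cells, 7 to 13 for 915 in knockdown cells, 4 to 7 for the knockdown with vehicle, 5 to 8 for the knockdown with 915, 0 to 1 for the difference of the 915 effects, 10 to 19 for TAC with vehicle, 8 to 13 for TAC with 332 and 0 to 1 for 332 in TAC hearts. Over all genes, 332 in TAC hearts called 60, but 671 without the filter, 176 with DESeq2, 30 with only the groups compared, 13 with no run term and 10 in the first run. For 332 in sham hearts 1 gene became 191, 3, 28, 0 and 12 in the same order. The difference of the 332 effects called 9 genes, but 521 without the filter, 80 with DESeq2, 6 with the replicate block, 5 in the first run and 0 with non-robust dispersion or no run term. Leaving out each library gave 22 to 94, 0 to 2 and 0 to 25 genes for these 3, 259 to 677 in place of 566 for the difference of the 915 effects, and 2437 to 3747 in place of 3703 for TAC with vehicle. TAC with 332 called 3349 genes, 2208 with no run term, 1662 in the first run and 2488 to 3668 with each library left out. In rat, leaving out each library gave 5536 to 5896 genes for 915 in scramble cells and 4627 to 5056 for 915 in knockdown cells. It gave 2338 to 2765 genes for the knockdown with vehicle and 4199 to 4956 for the knockdown with 915. The cause of these moves was not tested. With a replicate block the members called were 21, 13, 7, 8 and 0 in the rat comparisons and 21, 11, 0, 0 and 0 in mouse, and 80 of 81 calls held, but the numbers share only a number: correlations of same-numbered libraries ran from −0.05 to 0.04 over 18 rat pairs and from −0.32 to 0.06 over 24 mouse pairs, and 2 of 12 rat and 1 of 18 mouse libraries correlated best with their own number. Low counts limit the mitosis genes in mouse, where many libraries held under 1 CPM.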
